A study of Arabidopsis thaliana with 22 samples.

Results

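Transcript levels in leaves of Arabidopsis thaliana were compared between 14 h and 13 h of a time course that covered a day and a night. The comparison rests on 4 arrays chosen by the hour in the source name, 2 of 14 h and 2 of 13 h, out of 22 arrays in all. It covers all 22746 probe sets of the ATH1 array that are not controls. Apart from the hour, the stated conditions of the 14 h and the 13 h plants were the same. They were the Col-0 accession, growth stage 3.90, compost, 12 h of light and 12 h of dark, and 20 plants pooled in a sample. The other arrays stood at 0, 1, 2, 4, 8, 12, 16, 20 and 24 h, again 2 at each. The labels do not say in words when the light came on. They do not place 13 h and 14 h in the light or in the dark, and they do not give 0 h as dawn. The age tag of the 16 h arrays reads 14 h, whereas the tags of the 14 h and 13 h arrays match their source names. In whole leaves, fewer cells of a type and less RNA per cell cannot be told apart.

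In a leaf moved between dark and light, some transcripts respond within the first hour and return, whereas others build up or decay slowly as messenger RNA turns over. Growth of leaf cells needs loosening of the wall, to which expansins and XTH enzymes contribute, and new wall polymers such as xyloglucan. Receptor kinases of the family that holds THE1 monitor the wall, and secreted RALF peptides are ligands of members of that family.

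At 14 h, 121 probe sets were higher (0.532% of all tested) and 116 were lower (0.51%) than at 13 h, at an adjusted p under 0.05 in limma with Benjamini-Hochberg adjustment. The direction was the same in replicate series 1 and 2 for all 237. Both 14 h arrays lay above both 13 h arrays for 119 of the 121, against 16.8% of all probe sets, and below both for 114 of the 116, against 14.9%. These counts and the shared direction come from the arrays that made the calls, so they are no separate support. The absolute log2 difference of the called probe sets had a median of 1.16, from 0.51 to 4.03, and 161 of the 237 differed by at least 1. The median over all probe sets was 0.01. The count rested on each of the 4 arrays. Fewer probe sets were called with any 1 of them left out, which leaves 1 array at that hour. Most of the 237 were not among those calls, though all 237 kept their sign. The count was 73 without the replicate series as a block. With only the 4 arrays in the fit it was 0, where 3032 probe sets had an unadjusted p under 0.05 in limma.

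**Figure D1:**
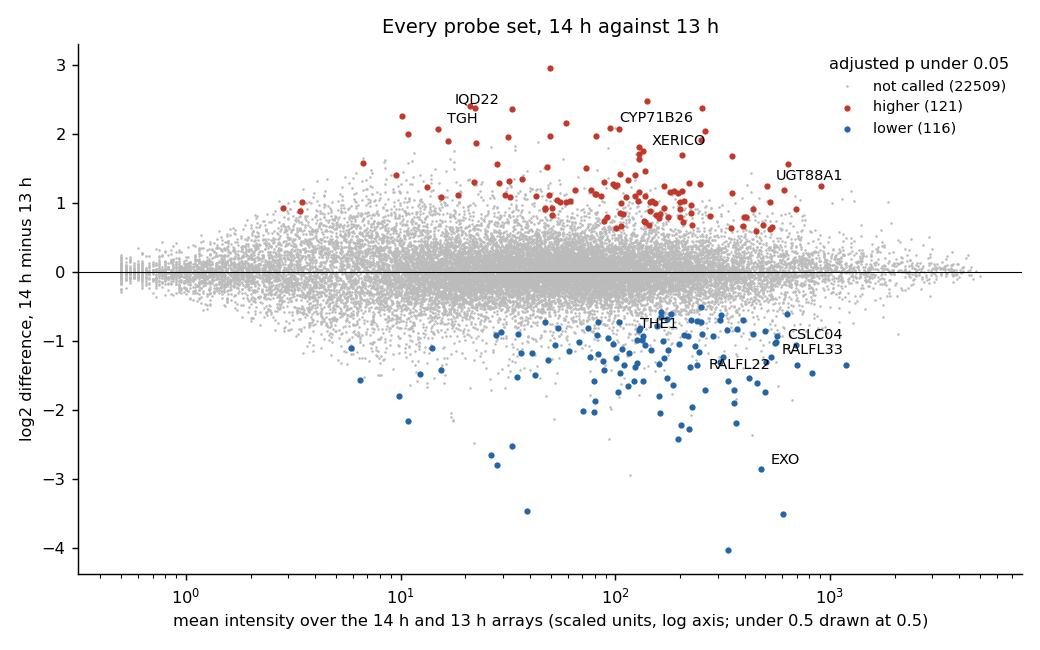
Log2 difference between 14 h and 13 h (vertical axis) against the mean intensity over the 14 h and 13 h arrays (horizontal, log axis) for each of the 22746 probe sets. Red points are the 121 called higher at 14 h, blue points the 116 called lower and grey points the rest; EXO stands at -2.86 and IQD22 at 2.36.

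The platform annotation gave 1 gene for 105 of the 237 called probe sets, 56 higher and 49 lower, and 9 of the higher and 7 of the lower genes have a symbol. The other 132 have no single gene there. One of them read 33.7 and 36.6 at 14 h, against 656 and 611 at 13 h, and another read 96.1 and 81.7 at 14 h, against 2.5 and 17.8 at 13 h. Intensities throughout are in units in which the trimmed mean of each array is 100, and pairs of values are replicate 1 and replicate 2. Log2 differences are of the intensity plus 4, which understates the change of dim genes. The highest value of the Bacillus subtilis control probe sets was 29.2 on any array. Of the 237 called probe sets, 19 had both hour means under it.

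EXO, which promotes cell expansion and leaf growth, read 91.4 and 139 at 14 h, against 827 and 859 at 13 h. Its log2 difference was -2.86 ± 0.41 (SE, n = 2 arrays an hour, adjusted p = 0.00454 in limma). The level had stood at 132 and 259 at 12 h, and it was 41.2 and 71.7 at 16 h, so that among these hours the 13 h arrays alone were high.

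The secreted peptide genes RALFL33 and RALFL22 were lower as well. RALFL33 read 278 and 352 at 14 h, against 776 and 709 at 13 h (log2 difference -1.23 ± 0.22, adjusted p = 0.0162 in limma). RALFL22 read 135 and 146 at 14 h, against 205 and 497 at 13 h (-1.16 ± 0.24, adjusted p = 0.0386 in limma). The 13 h arrays of RALFL22 lay far apart, yet the hours did not overlap for either gene. The family list of RALFL and CLE peptides held 17 measured genes, of which these 2 were lower and none was higher at 14 h, beside 0.51% lower and 0.532% higher among all probe sets. Its median log2 difference was -0.11, against 0.01 for all probe sets. The call of RALFL22 was lost in 8 and that of RALFL33 in 4 of 17 alternative settings, in both without the second 13 h array and without the first 14 h array.

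CSLC04, which makes the glucan backbone of xyloglucan, read 331 and 392 at 14 h, against 555 and 962 at 13 h. Its log2 difference was -1.01 ± 0.17 (adjusted p = 0.0123 in limma). THE1, a receptor kinase that senses the state of the wall, read 163 and 122 at 14 h, against 226 and 322 at 13 h. It fell by 0.91 on the log2 scale (SE 0.19, adjusted p = 0.0333 in limma). For both genes each 14 h array was below each 13 h array, and THE1 read lower again at 16 h, 58.8 and 82.4. The call of CSLC04 was lost in 5 and that of THE1 in 6 of 17 alternative settings, in both without the second 13 h array, without the second 14 h array and without the replicate block.

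The expansin-like genes EXLA1 and EXLA2 and the xyloglucan-modifying gene XTH33 had large differences that missed the threshold. EXLA1 read 136 and 108 at 14 h, against 366 and 1124 at 13 h (log2 difference -2.36 ± 0.56, adjusted p = 0.0627 in limma). XTH33 read 18.6 and 22.1 at 14 h, against 56.3 and 275 at 13 h (adjusted p = 0.183 in limma), and EXLA2 read 21.7 and 30.3 at 14 h, against 58.5 and 104 at 13 h (adjusted p = 0.198 in limma). In each of these genes the second 13 h array was above the first. Of 18 measured genes in the list of expansins and wall loosening, EXO alone passed, beside 0.51% called lower among all probe sets. The list median was -0.46, against 0.01 for all probe sets. Of 27 measured genes in the family list of XTH and EXP genes 0 passed in limma, and the median was -0.16. Of 22 genes of the TBL family, which takes part in wall acetylation, 0 passed in limma, and the median was 0.12. In each of these families 5 genes had an unadjusted p under 0.05 in limma, beside 11.7% of all probe sets.

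**Figure D2:**
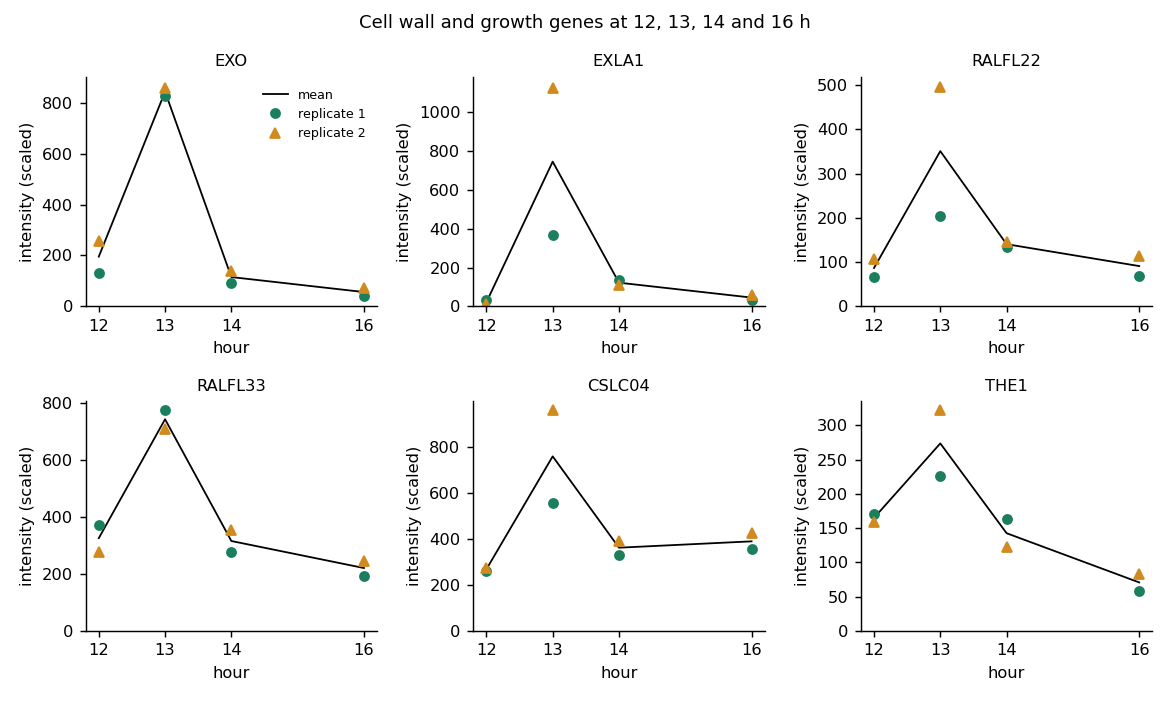
Intensity of 6 cell wall and growth genes at 12, 13, 14 and 16 h, with circles for replicate 1, triangles for replicate 2 and a line through the means of the 2 arrays. Each gene is highest at 13 h, and EXLA1, RALFL22 and CSLC04 have 13 h arrays that lie far apart.

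Genes that were higher at 14 h included enzymes and regulators of several kinds. XERICO, a RING-type protein that raises abscisic acid levels, read 207 and 210.1 at 14 h, against 45.7 and 75.1 at 13 h. Its log2 difference was 1.76 ± 0.21 (adjusted p = 0.00091 in limma). It had been at 142 and 126 at 12 h, so that the 13 h arrays were its low point. UGT88A1, a glycosyltransferase, read 754 and 672 at 14 h, against 357 and 245 at 13 h (1.25 ± 0.17, adjusted p = 0.0033 in limma). It too was lowest at 13 h among 12, 13, 14 and 16 h, when its levels were 610.2 and 761, then 357 and 245, then 754 and 672, then 1154 and 914.

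CYP71B26, a cytochrome P450, followed another course. It read 163 and 150.1 at 14 h, against 35.4 and 31.6 at 13 h (log2 difference 2.097 ± 0.38, adjusted p = 0.0184 in limma). It was 20.1 and 9.7 at 12 h and 462 and 367 at 16 h, a climb over the whole stretch with no dip at 13 h. Its call was lost in 4 of 17 alternative settings, each of them a fit without 1 of the 4 arrays. Its log2 difference ran from 1.42 to 2.79 over the settings. CYP71B26 was the only 1 of 26 measured cytochrome P450s that passed, and UGT88A1 the only 1 of 47 glycosyltransferases of the UGT family. Among all probe sets 0.532% were called higher. The medians of these lists were 0.23 and 0.22, against 0.01 for all probe sets.

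IQD22, of a family of calmodulin-binding proteins, read 59.6 and 54.1 at 14 h, against 15.9 and 3.0 at 13 h (log2 difference 2.36 ± 0.34, adjusted p = 0.00455 in limma). TRM24 read 12.3 and 26.9 at 14 h, against 0.4 and 1.0 at 13 h, and TGH read 24.7 and 28.7 at 14 h, against 3.3 and 3.2 at 13 h. Members of the TRM family take part in organising microtubules, and TGH is an RNA-binding protein needed for making microRNAs. The 13 h values of IQD22 lay in the range of the control probe sets, and for TRM24 and TGH the values of both hours did, so the sizes of these differences depend on the constant added and neither level of TRM24 or TGH is above that range. TRM24 and TGH had adjusted p-values of 0.0242 and 0.0232 in limma. Their calls were lost in 5 and 7 of the 15 alternative settings that could test them beside the fit of 4 arrays. Another member of the TRM family moved the opposite way. TRM26 read 32.9 and 43.5 at 14 h, against 61 and 78 at 13 h (-0.80 ± 0.16, adjusted p = 0.0253 in limma).

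Smaller rises were those of NRPA1, UBP26 and ZAP1. NRPA1, the largest subunit of RNA polymerase I, read 76.3 and 49.7 at 14 h, against 35.5 and 26.3 at 13 h (log2 difference 0.92 ± 0.20, adjusted p = 0.0429 in limma). UBP26, a ubiquitin protease that acts on histone H2B, read 43.5 and 46.3 at 14 h, against 25 and 14.1 at 13 h (1.09 ± 0.21, adjusted p = 0.0242 in limma), with 13 h values in the control range. NRPA1 was the only 1 of 12 measured RNA polymerase subunits of the NRP family list that passed, beside 0.532% called higher among all probe sets. The list median was 0.29, against 0.01 for all probe sets. ZAP1, a WRKY transcription factor, read 113 and 134 at 14 h, against 65.6 and 91.1 at 13 h (0.64 ± 0.14, adjusted p = 0.0485 in limma). In all of them both 14 h arrays were above both 13 h arrays. The call of NRPA1 was lost in 11 and that of ZAP1 in 12 of the alternative settings that could test them beside the fit of 4 arrays, quantile normalization and each left-out array among them. The remaining gene with a symbol, ATRER1C1, which encodes a protein that retrieves others to the endoplasmic reticulum, read 91.4 and 95.9 at 14 h, against 173 and 160.4 at 13 h (-0.81 ± 0.14, adjusted p = 0.0126 in limma).

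**Figure D3:**
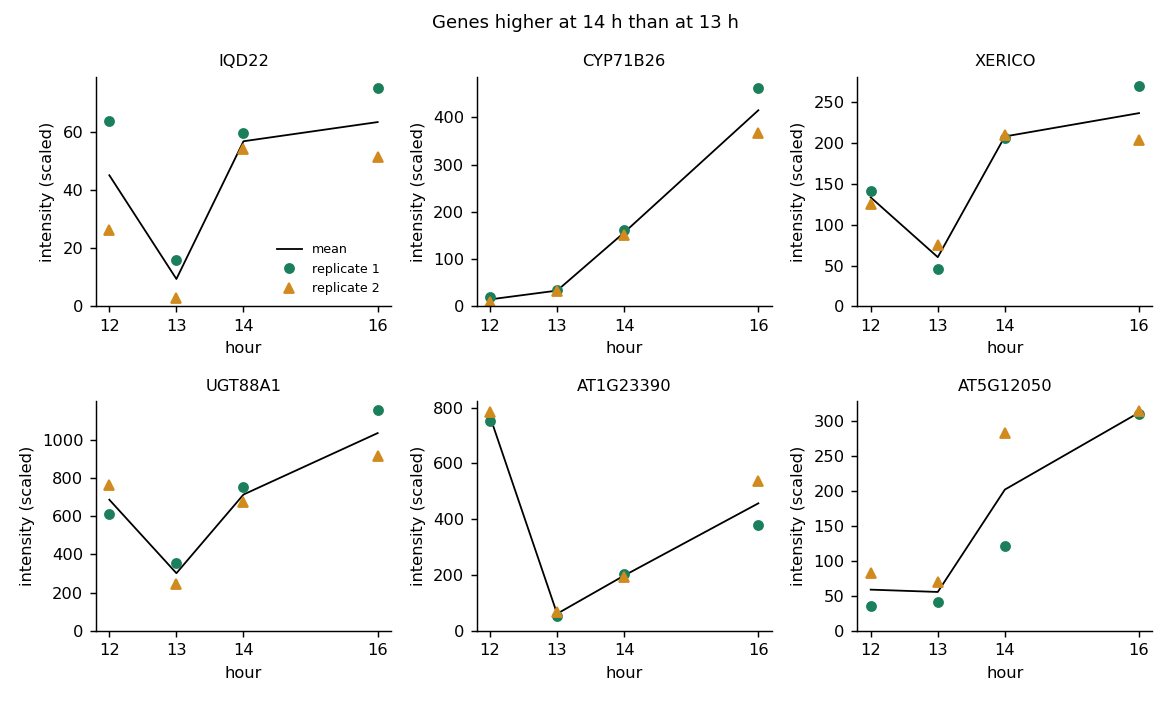
Intensity at 12, 13, 14 and 16 h of 6 genes called higher at 14 h than at 13 h, with circles for replicate 1, triangles for replicate 2 and a line through the means. IQD22, XERICO, UGT88A1 and AT1G23390 are lowest at 13 h, whereas CYP71B26 climbs throughout and AT5G12050 rises after 13 h.

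The remaining large changes belong to genes for which the annotation gives a locus code and no symbol. Among the falls, AT2G47440 read 402 and 475 at 14 h, against 1250.4 and 1178 at 13 h (log2 difference -1.47 ± 0.17, adjusted p = 0.00091 in limma). AT1G11210 read 8.6 and 5.1 at 14 h, against 74.4 and 44.4 at 13 h (-2.52 ± 0.35, adjusted p = 0.00352 in limma). Its 14 h values lie in the control range, so the size of its fall depends on the constant added, and it was -2.93 with 1 in place of 4. AT5G42760 read 408 and 379 at 14 h, against 1169 and 859 at 13 h. These 3 genes were all above their 12 h level at 13 h, with 12 h values of 376 and 543, of 4.1 and 5.3 and of 230.1 and 219 in that order.

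AT5G14120 read 778 and 540.4 at 14 h, against 2172 and 1260 at 13 h, after 3069 and 2009 at 12 h (log2 difference -1.35 ± 0.19, adjusted p = 0.00372 in limma). AT5G63190 read 114 and 129 at 14 h, against 388 and 265 at 13 h, after 494 and 577 at 12 h. AT5G51570 read 44.8 and 47.4 at 14 h, against 116 and 144 at 13 h, after 107 and 109 at 12 h. In AT5G14120 and AT5G63190 the 13 h arrays lay below the 12 h arrays in both series, whereas AT5G51570 was near its 12 h level at 13 h. The other falls among the 15 largest ran from -1.95 to -1.30 on the log2 scale, and they were AT1G32920, AT5G16200, AT4G27280, AT1G74450, AT3G59350, AT2G28200, AT2G44500 and AT1G23030.

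Among the rises, AT1G23390 read 204 and 192 at 14 h, against 54.5 and 67.7 at 13 h, after 751 and 785 at 12 h. Its log2 difference of 1.64 ± 0.18 (adjusted p = 0.00078 in limma) was followed by readings of 378 and 536 at 16 h, still below those at 12 h. AT4G33666 read 609 and 455 at 14 h, against 214 and 120.4 at 13 h, after 768 and 766 at 12 h. AT3G07310 read 398 and 310.3 at 14 h, against 156 and 130.2 at 13 h, after 402 and 453 at 12 h. For these 3 genes the 13 h arrays were the lowest of the 4 hours from 12 to 16 h.

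AT5G12050 read 121 and 282 at 14 h, against 41.1 and 69.9 at 13 h, after 35.7 and 81.9 at 12 h (log2 difference 1.71 ± 0.33, adjusted p = 0.0232 in limma). AT4G16880 read 54 and 50.9 at 14 h, against 12.4 and 8.8 at 13 h, after 3.1 and 3.2 at 12 h. AT3G15570 read 272 and 137 at 14 h, against 58.3 and 45.9 at 13 h, after 49.4 and 93.2 at 12 h. These genes read higher still at 16 h, with 310 and 314 for AT5G12050, 96.1 and 98.2 for AT4G16880 and 308 and 263 for AT3G15570. The other rises among the 15 largest ran from 1.26 to 1.97 on the log2 scale, and they were AT1G74940, AT2G34620, AT5G45650, AT5G54630 and AT3G22550.

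A level at 13 h that stood apart from the mean of 12 h and 14 h was tested as a contrast of its own. It was above that mean for 204 probe sets (0.897% of all tested) and below it for 293 (1.29%). The 13 h arrays exceeded every 12 h and 14 h array for 162 of the 204, against 4.66% of all probe sets. They were below every one for 215 of the 293, against 6.17%. A steep step between 12 h and 13 h that then levels off can also pass this contrast, so it is wider than a true peak or dip. The count is 497 in all. It was smaller without the second 13 h array, and most of the 497 were then not called.

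The high points at 13 h included 5 of 18 measured genes of the list of expansins and wall loosening, beside 0.897% of all probe sets. That list was chosen with earlier results of these data known. EXLA1 stood 3.57 ± 0.48 above the mean of its neighbours (adjusted p = 0.00114 in limma), XTH33 2.96 ± 0.67 (adjusted p = 0.0321 in limma), EXLA2 1.74 ± 0.41 (adjusted p = 0.0417 in limma) and EXO 2.51 ± 0.36 (adjusted p = 0.00153 in limma). The 12 h arrays of EXLA1 read 31.1 and 12, far below either 13 h array. XTH19, the remaining member, read 51.5 and 20.6 at 14 h, against 64.2 and 52.4 at 13 h, after 12.2 and 6.2 at 12 h. RALFL22, RALFL33, CSLC04 and THE1 were past the threshold in this contrast too, with values of 1.52, 1.21, 1.23 and 0.81. Of the 60 named genes past the threshold in this contrast, 36 kept the call with no replicate block. With only the arrays of 12, 13, 14 and 16 h, 32 of them kept it.

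Other genes with a symbol also passed above the mean of 12 h and 14 h. TUB7, a beta-tubulin, read 94.2 and 114 at 14 h, against 112 and 138 at 13 h, and ACT11, an actin, read 160.4 and 136 at 14 h, against 177 and 169 at 13 h. Both differed little between 13 h and 14 h, so they passed mainly by the step before 13 h. They were 2 of 8 measured tubulin and actin genes, beside 0.897% of all probe sets, and the list's median in the contrast was -0.02. UGT78D2, which adds glucose to flavonols and anthocyanins, read 387 and 420.4 at 14 h, against 634 and 824 at 13 h, after 215 and 260 at 12 h. Its value in the contrast was 1.22 ± 0.26 (adjusted p = 0.0228 in limma). GT72B1 read 690 and 737 at 14 h, against 741 and 874 at 13 h, after 176 and 159 at 12 h, so it passed by the step before 13 h. In the UGT family 2 of 47 genes were high and 1 was low at 13 h, with a median of -0.14 in the contrast. Among all probe sets 0.897% were high and 1.29% low. The last symbols in this group were UGT71C4, CYTC-2, a cytochrome c, and PUB26, a ubiquitin ligase. None of TUB7, ACT11, UGT78D2, GT72B1, UGT71C4, CYTC-2 and PUB26 passed in 14 h against 13 h, with adjusted p-values between 0.254 and 0.940 in limma.

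The genes that at 13 h lay below the mean of 12 h and 14 h included 2 of the list of darkness and low sugar. ATG8E, a protein of the membrane of autophagosomes, read 125 and 141 at 14 h, against 34.7 and 69 at 13 h, after 441 and 303 at 12 h. Its value in the contrast was -2.08 ± 0.29 (adjusted p = 0.00123 in limma), and its difference between 14 h and 13 h was 1.36 ± 0.33 (adjusted p = 0.0715 in limma). AKINBETA1, a subunit of the SnRK1 kinase that acts at low energy, read 69.4 and 62.3 at 14 h, against 108 and 68.6 at 13 h, after 583 and 477 at 12 h. It read lower again at 14 h, and it passed by the step before 13 h. Of the 9 measured genes on the list of darkness and low sugar, 2 lay below that mean at 13 h and 1, EXO, above it. Among all probe sets 1.29% lay below it and 0.897% above it.

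NdhS, a subunit of the plastid NDH complex, read 808 and 708 at 14 h, against 445 and 402 at 13 h, after 889 and 847 at 12 h. Its value in the contrast was -0.93 ± 0.17 (adjusted p = 0.00902 in limma). Its difference between 14 h and 13 h, 0.83 ± 0.20, missed the threshold (adjusted p = 0.0644 in limma). The others with a symbol that at 13 h lay below the mean of 12 h and 14 h did not pass in 14 h against 13 h. They were SIS, BPC1, UBC22, CSA1, SDS, TPS-CIN, scpl50, COR27 and bHLH121. COR27, a cold-regulated gene tied to the clock, read 1.3 and 0.8 at 14 h, against 5.1 and 4.9 at 13 h, after 48.9 and 51.8 at 12 h, a decline that did not turn.

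The 10 largest high points also held AT3G14200, AT5G20790, AT3G28200 and AT1G61890. AT3G28200 passed in 14 h against 13 h too, with 231 and 143 at 14 h, against 322 and 575 at 13 h. The 10 largest low points also held AT2G20670, AT3G15450, AT5G19120, AT2G34620, AT1G49500 and AT5G08520. AT2G20670 read 107 and 49.1 at 14 h, against 49.9 and 14.5 at 13 h, after 387 and 413 at 12 h, and AT3G15450 read 88.9 and 69.4 at 14 h, against 90.8 and 37 at 13 h, after 1448 and 958 at 12 h. Neither had come back to its 12 h level.

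The 49 pathway lists, which span metabolism, the clock, hormones, stress and cell type markers, held 163 genes with a named probe set, of which 0 were called higher and 1, EXO, lower at 14 h in limma. That is near the 0.51% called lower among all probe sets and says nothing particular of these genes. An unadjusted p under 0.05 was reached by 30 of the 163, which is 18.4% against 11.7% of all probe sets. The 3 starch synthesis genes had a median log2 difference of 0.33, led by APL3, a subunit of the enzyme that makes ADP-glucose, at 88.9 and 214 at 14 h, against 46.1 and 135 at 13 h (adjusted p = 0.322 in limma). The 4 starch breakdown genes had a median of -0.09. SBE2.2, a starch branching enzyme, read 318 and 296 at 14 h, against 219 and 271 at 13 h. The sucrose transporter SWEET11 read 757 and 896 at 14 h, against 1070 and 1048 at 13 h (-0.36, adjusted p = 0.682 in limma), and F2KP, which sets the level of fructose 2,6-bisphosphate, differed by 0.04. No trehalose phosphate gene had a named probe set.

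The measured genes of the photosynthesis lists lay close to no difference, whereas NdhS, outside these lists, had 0.83. Of 43 listed genes of the photosystems and electron transport, the 6 measured ran from -0.04 to 0.12 on the log2 scale. The 3 measured of 21 antenna protein genes ran from 0.06 to 0.28, and the 5 measured of 28 Calvin cycle genes from -0.09 to 0.09. RCA, which activates Rubisco, read 3957 and 3848 at 14 h, against 4403 and 3794 at 13 h. The 69 plastid genome genes had a median of 0.05. None of the genes in these 4 groups passed, and 0 of them had an unadjusted p under 0.05 in limma. Among 8 chlorophyll synthesis genes PORB had the largest difference, 146 and 76.8 at 14 h, against 369 and 133 at 13 h (-1.04, adjusted p = 0.152 in limma).

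Of the clock and light signalling genes, GI, an evening gene, read 164 and 115 at 14 h, against 68.9 and 99 at 13 h (log2 difference 0.71, adjusted p = 0.73 in limma). Over all time points the mean of GI was lowest at 8 h and 12 h, 8.65 and 11.1, and highest at 20 h, 656.7. This evening gene was thus near its lowest at 12 h. The hour at which the light came on was not tested. HYH, a light-induced bZIP factor, read 251 and 288 at 14 h, against 472 and 502 at 13 h, a difference of -0.85 that did not pass (adjusted p = 0.206 in limma). IAA29, an auxin-responsive gene on the shade list, read 45.1 and 73.5 at 14 h, against 15.7 and 21 at 13 h (1.47, adjusted p = 0.0526 in limma). The 5 touch and calcium genes had a median of -0.77, and 0 passed in limma. An unadjusted p under 0.05 in limma was reached by 2 of them, beside 11.7% of all probe sets. Of these genes STZ, a zinc finger repressor, read 69.9 and 107 at 14 h, against 322 and 173 at 13 h. The reference genes PEX4 and GAPC2 differed by -0.17 and 0.01.

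Beside these results stand the checks of the arrays. The 14 h arrays correlated with each other, and the 13 h arrays with each other, at r between 0.964 and 0.969 over probe sets. The actin signal at the 3' end over that at the 5' end, a measure of RNA quality, was 1.98 and 2.73 at 14 h, against 1.65 and 2.50 at 13 h, higher at 14 h in both series. With that ratio as a covariate, 166 probe sets were called, of which 156 were among the 237. Leaf markers were high, with a summed level of the 3 mesophyll and leaf markers of 4199 and 4068 at 14 h, against 4606 and 4047 at 13 h. Of 17 markers of 5 tissues and cell types, none was called in 14 h against 13 h in limma, 1 flower and pollen marker had an unadjusted p under 0.05, and none was at 0. ACT11, a flower and pollen marker here, passed in the contrast of 13 h with its neighbours. The sums were 53.8 and 42.1 at 14 h, against 56.4 and 45.3 at 13 h, for 5 root markers, and 368 and 274 at 14 h, against 435 and 366 at 13 h, for 4 flower and pollen markers, most of it TUA1 and ACT11. The 3 guard cell markers summed to 52.5 and 67.4 at 14 h, against 51 and 36.9 at 13 h, and the 2 epidermis and trichome markers to 933 and 705 at 14 h, against 942 and 975 at 13 h. Their part in the result was not tested.

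Whether the called probe sets also differed on arrays that the comparison did not use was examined in 16 h against 12 h. In that comparison 1021 probe sets were higher (4.49% of all tested) and 1191 lower (5.24%). Of the 121 that were higher at 14 h than at 13 h, 58 were higher and 7 lower at 16 h than at 12 h, with a median log2 difference of 0.65. Of the 116 that were lower at 14 h, 1 was higher and 68 were lower at 16 h, with a median of -0.81. The median over all probe sets was -0.05. CYP71B26 was higher by 4.52 at 16 h than at 12 h (adjusted p = 5.62e-06 in limma), whereas RALFL22 differed by 0.06.

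**Figure D4:**
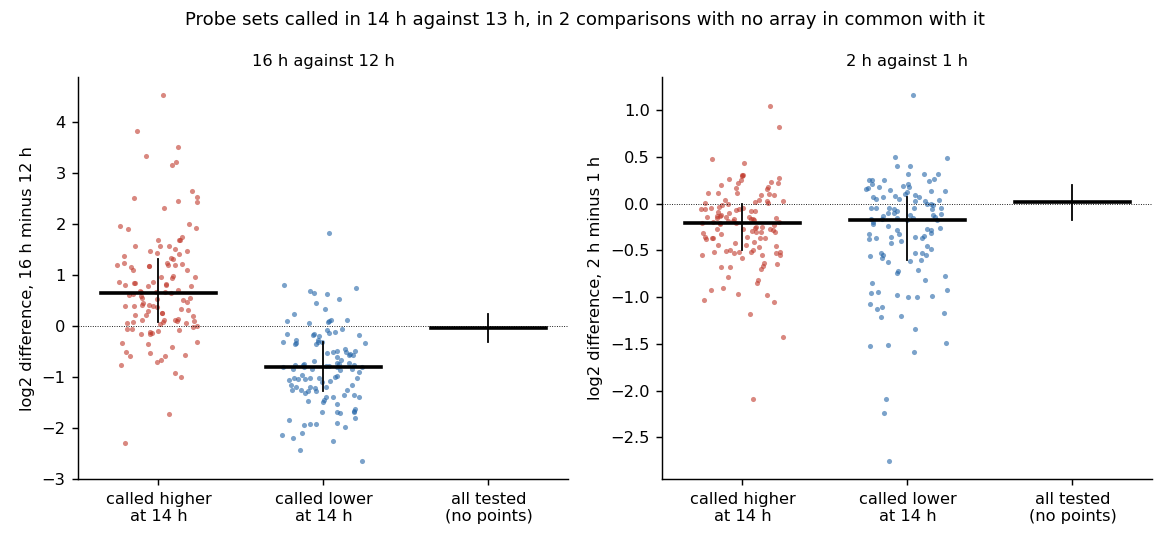
Log2 differences of the 121 probe sets called higher (red) and the 116 called lower (blue) at 14 h than at 13 h, in 16 h against 12 h (left) and in 2 h against 1 h (right). Neither difference uses a 13 h or 14 h array, though all arrays entered the fit. Thick bars are medians, thin lines run between the quartiles, and the column on the right of each panel gives all 22746 probe sets; the medians are 0.65, -0.81 and -0.05 on the left and -0.21, -0.17 and 0.01 on the right.

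The second hour after 0 h, 2 h against 1 h, was the other such comparison. There 2 probe sets were higher (0.00879% of all tested) and 17 lower (0.0747%), and 2 were called in all without the second 1 h array, whose actin ratio was 6.31. The 121 had a median log2 difference of -0.21 and the 116 one of -0.17, against 0.01 for all probe sets, so both sets lay below it. AT2G47440 was among the few that passed there, at 220 and 284 at 2 h, against 555 and 909 at 1 h (log2 difference -1.49, adjusted p = 0.00324 in limma). EXO read 265 and 169 at 2 h, against 915 and 908 at 1 h (-2.09, adjusted p = 0.0959 in limma). XERICO read 300.3 and 258 at 2 h, against 133 and 132 at 1 h (1.05, adjusted p = 0.0959 in limma).

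The difference between the 2 second hours was tested as 1 contrast, 14 h minus 13 h less 2 h minus 1 h. It was positive for 73 probe sets (0.321% of all tested) and negative for 12 (0.0528%). UGT88A1 had a value of 1.53 ± 0.24 (adjusted p = 0.0166 in limma) and AT1G23390 one of 2.17 ± 0.26 (adjusted p = 0.00269 in limma). EXO had -0.77 ± 0.58 (adjusted p = 0.697 in limma), XERICO 0.71 ± 0.29 (adjusted p = 0.355 in limma) and AT2G47440 0.03 ± 0.24 (adjusted p = 0.986 in limma), which does not show that their changes were alike. The count was 85 in all, 20 without the second 1 h array and 6 with the actin ratio as a covariate.

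**Figure D5:**
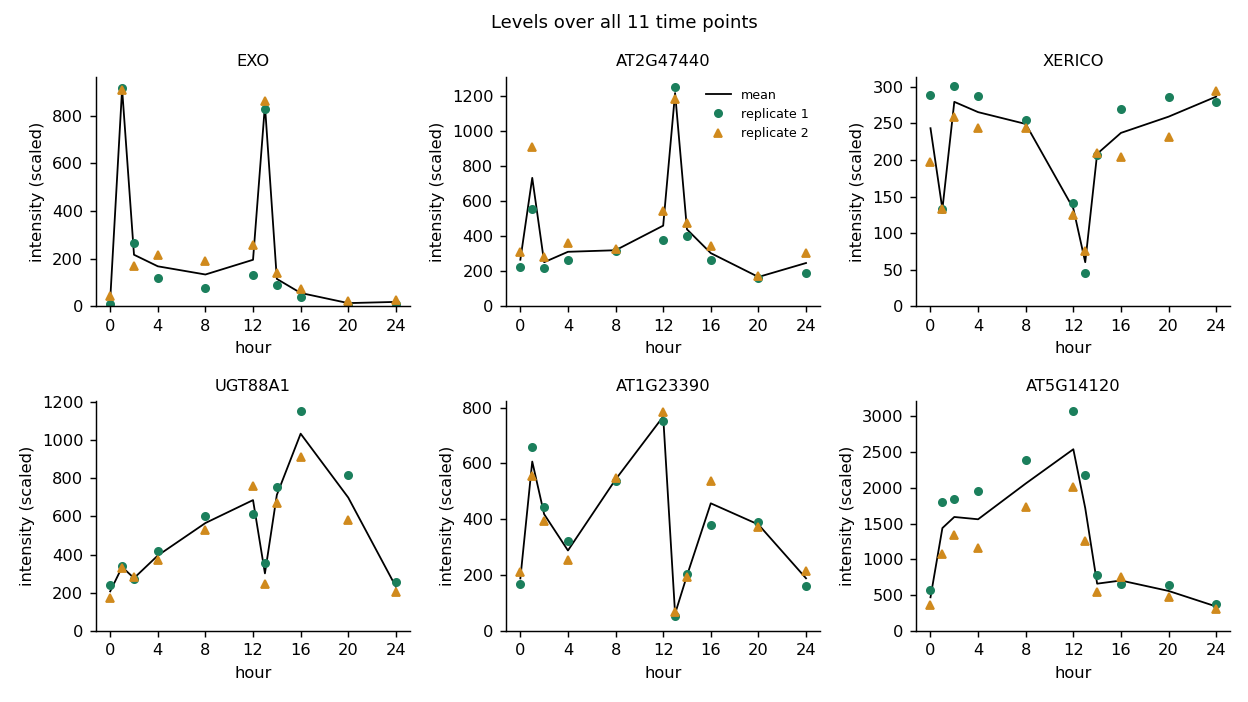
Intensity of 6 genes over all 11 time points, with circles for replicate 1, triangles for replicate 2 and a line through the means. EXO and AT2G47440 are above both neighbouring time points at 1 h and at 13 h, XERICO is below both neighbours at each, UGT88A1 and AT1G23390 are below them at 13 h and above them at 1 h, and AT5G14120 declines after 12 h.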

How the data were processed

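Leaf RNA of 11 time points, 2 biological replicates each, was hybridised to ATH1 arrays. The deposited table holds intensity values on a linear scale, scaled by the authors so that each array's mean without the lowest and highest 2% is 100, as seen from the values. The sources used here name no software. Of 22810 probe sets, 64 controls were left out. The platform annotation named 1 gene for 13513 probe sets, several for 503 and none for 8730. Symbols were updated from RefSeq (TAIR10.1).

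Values were taken as log2(value + 4) and fitted in limma 3.58.1 (R 4.3.3; lmFit, eBayes with a trend) on all 22 arrays, with 1 mean per hour and the replicate series as a block, 10 residual degrees of freedom, two-sided. P-values were adjusted over 22746 probe sets. Same-numbered arrays deviated together (55 pairs of hours, r from 0.136 to 0.451), by the replicate numbers in the labels. Biological replicates are stated, separate cultures are not, so p-values measure the spread between these samples. The number of arrays limits the precision. On simulated data for 14 h against 13 h (22746 probe sets), 73 of 100 probe sets changed by 1 on the log2 scale and 93 of 100 changed by 2 were recovered, with 10 false calls. The changes were placed only in probe sets with a mean intensity of at least 50. The noise was normal and independent, with each probe set's own spread. Changes in dimmer probe sets and deviations shared within an array were not simulated, so the figures do not cover them.

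Named are the 15 largest rises and falls and the 10 largest high and low points at 13 h (same direction in both series, higher mean at least 50), list members and genes with a symbol that passed, 1 probe set a gene (highest mean). The comparison, the 49 pathway lists and 26 families were chosen with earlier results of these data known. Of 1412 listed symbols, 163 had a named probe set. FAMA, a guard cell gene, was taken off the mesophyll markers after its values were seen. Other comparisons are 16 h against 12 h, 2 h against 1 h and the contrast of second hours, added after seeing the data. No promoter sequences were used, so the planned motif count was not run.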

Additional observations from a re-analysis of the deposited data

Results flagged for a closer look

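The contrast of 14 h minus 13 h less 2 h minus 1 h compares the second hours after 12 h and after 0 h. In it 14 of the named genes passed, but few of these calls held under the other settings given below. Of these, 11 were more positive after 12 h. AT2G34620 had 2.67, AT3G15570 2.48, AT1G23390 2.17, AT4G33666 2.13 and AT1G74940 2.03. AT3G07310 had 1.65, UGT88A1 1.53, NdhS 1.501 and AT5G54630 1.45. HAT2, a homeodomain factor on the shade list, had 1.91, with differences of 0.75 for 14 h against 13 h and -1.15 for 2 h against 1 h, and CYP71B28 had 0.85. More negative were AT5G14120 with -1.52, AT5G51570 with -1.49 and ATRER1C1 with -1.04. Adjusted p-values lay between 0.00269 and 0.0455 in limma. The second 1 h array had a 3' to 5' actin ratio of 6.31, the highest of the 22. Without it, 2 of the 14 genes passed, and with the ratio as a covariate 0 passed, while all 14 kept their sign. The part of RNA quality in these values was not tested further.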

How the results depend on the processing

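For 14 h against 13 h, 237 probe sets were called. The count was 73 with no replicate block, where the same arrays are treated as unpaired, and 132 with eBayes without a trend. It was 840 with the hour from the age tag, which puts the 16 h arrays at 14 h, 19 with only the arrays of 12, 13, 14 and 16 h, and 0 with only the 4 arrays of both hours. Leaving out 1 of the 4 arrays gave 61 to 175 calls. The other alternatives gave 160 to 300 calls. For 13 h against the mean of 12 h and 14 h, the count was 497 and became 228 with no replicate block, 323 with array weights and 183 with only the arrays of 12, 13, 14 and 16 h, and leaving out 1 array gave 220 to 515. Of the 42 named genes called in 14 h against 13 h, 11 kept the call without each of the 4 arrays in turn: EXO, XERICO, UGT88A1, AT1G11210, AT1G23390, AT2G47440, AT3G07310, AT4G33666, AT5G14120, AT5G51570 and AT5G54630. All 42 kept their sign under every alternative, and 19 kept the call with no replicate block. For the contrast of second hours, 85 probe sets were called, 20 without 1 h replicate 2, 6 with the actin covariate and 16 with no replicate block. For 2 h against 1 h, 19 were called, and 2 without 1 h replicate 2. Both were added after seeing the data. The cause of these changes was not tested, apart from the fewer arrays in some fits. Of the probe sets called in 14 h against 13 h, 29 of the higher and 21 of the lower had a lower hour mean under 29.2, the highest Bacillus subtilis control value, so the size of these differences is uncertain.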
